A study of Mus musculus with 2 samples.

Results

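The blood vessel lining was followed through 10 of its genes, Pecam1, Cdh5, Kdr, Flt1, Plvap, Emcn, Eng, Cldn5, Egfl7 and Esam, taken by gene name from the transcript read tables of a long-read RNA sequencing study of the mouse adrenal gland. All 10 had reads in both libraries, among 18111 annotated genes with at least 1 read in either. The tissue came from 14-day-old female mice of the B6CASTF1/J cross, an F1 between C57BL/6 and CAST parents, with no treatment and no second group. It was sequenced as 2 libraries, replicate 1 and replicate 2. The label of the tissue behind replicate 1 speaks of 3 females and that behind replicate 2 of 1 numbered female, while both library descriptions speak of 3, so whether either is a pool is not settled, and both name the same donor record. Every p-value below therefore compares the reads of these 2 libraries and measures no spread between animals.

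Endothelial cells line every vessel, and those of the adrenal cortex and medulla form sinusoid-like capillaries with fenestrae, through which hormones reach the blood. Kdr and Flt1 are receptors for vascular endothelial growth factor (VEGF). Kdr carries most of the growth signal, and a shortened, secreted Flt1 binds the ligand without signalling. Cdh5 (VE-cadherin), Cldn5 (claudin-5), Esam and Pecam1 join neighbouring cells, Plvap forms the diaphragms of fenestrae, and Eng (endoglin) is a co-receptor for bone morphogenetic protein and transforming growth factor ligands. Emcn is a sialomucin of the capillary and venous surface, and Egfl7 is secreted into the vessel matrix and holds a microRNA gene in one of its introns.

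Each read is meant to span 1 RNA molecule, and each is assigned to a transcript model. Known models match the introns of an annotated transcript, and ISM models hold an incomplete run of those introns. NIC models recombine annotated splice sites, NNC models contain an unannotated one, and Genomic models lie over a gene but follow none of its splicing. Exon structures inside a model come from the reads, but the outer ends of many models were set to annotated ends. How far a single read extended cannot be read from the tables, so counts of splices are firmer than positions of ends.

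Some sequences show where the forms below part, all from the GENCODE M21 transcripts on the mm10 build. In Flt1 the choice lies at the end of exon 13, on the minus strand of chromosome 5. The secreted form, Flt1-203, reads on into the intron (chr5:147639130-147639248, capitals past the exon boundary, to the stop codon), and the receptor, Flt1-202, splices to exon 14 (capitals).
Flt1-203: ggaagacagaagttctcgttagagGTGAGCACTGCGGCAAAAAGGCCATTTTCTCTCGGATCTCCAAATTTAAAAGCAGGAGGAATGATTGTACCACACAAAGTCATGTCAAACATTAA
Flt1-202: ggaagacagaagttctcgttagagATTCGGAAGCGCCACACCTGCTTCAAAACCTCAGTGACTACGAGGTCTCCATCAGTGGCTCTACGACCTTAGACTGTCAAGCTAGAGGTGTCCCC
Past the shared 24 bases of exon 13, the secreted form gains 92 coding bases before its stop codon.

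In Pecam1, exons 14 (chr11:106671742-106671798) and 15 (chr11:106662002-106662024) of Pecam1-204 encode part of the cytoplasmic tail and can each be left out. They are shown in capitals with 12 bases of their neighbours, followed by the junction that omits both.
Pecam1 exon 14: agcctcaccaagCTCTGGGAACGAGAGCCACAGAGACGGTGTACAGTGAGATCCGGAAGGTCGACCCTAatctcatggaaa
Pecam1 exon 15: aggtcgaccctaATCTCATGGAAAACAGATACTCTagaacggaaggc
Pecam1 exon 13 to exon 16: agcctcaccaagagaacggaaggc
Exon 14 is 57 nt long, a whole number of codons, and exon 15 is 23 nt long, which is not.

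Eng has acceptor sites 3 nt apart at the start of exon 2. The upstream acceptor (Eng-201) keeps the 3 bases in capitals and the downstream acceptor (Eng-205) drops them.
Eng-201: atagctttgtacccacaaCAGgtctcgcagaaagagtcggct
Eng-205: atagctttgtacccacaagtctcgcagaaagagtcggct
The annotated proteins are 653 and 652 residues long.

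Egfl7 has unannotated acceptors at exons 3 and 8 of Egfl7-202, each seen in both libraries. That of exon 8 adds 99 nt of intron 7 (capitals, between exon 7 and the annotated exon 8), and that of exon 3 lies at the start codon (capitals).
Egfl7 exon 8 extension: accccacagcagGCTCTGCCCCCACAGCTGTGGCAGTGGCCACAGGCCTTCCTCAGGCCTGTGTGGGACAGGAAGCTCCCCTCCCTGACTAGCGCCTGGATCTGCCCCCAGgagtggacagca
Egfl7 exon 3 start codon: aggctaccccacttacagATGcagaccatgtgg
The bases AG precede both acceptors. Read in the annotated frame, the 99 added bases hold 1 stop codon.

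The members together took 1147 of 1065570 gene reads in replicate 1, 0.108% (95% exact binomial interval 0.102 to 0.114), and 855 of 946553 in replicate 2, 0.0903% (0.0844 to 0.0966). Levels are given as CPM, the reads of a gene per 1000000 reads in annotated genes, spike-ins left out. Plvap had the most reads, 352 in replicate 1 and 179 in replicate 2, or 330 and 189 CPM. Cldn5 followed with 260 and 194 reads, 224 ± 27.6 CPM (mean ± SD, n = 2, as for the means that follow). Eng had 151 reads in each library (151 ± 12.6 CPM), and Egfl7 148 and 108 (126 ± 17.5 CPM). Esam, with 83 reads in each, stood at 82.8 ± 6.93 CPM. These 5 genes held most of the members' reads.

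The other 5 members, Emcn, the VEGF receptors Kdr and Flt1, and the junction genes Pecam1 and Cdh5, had fewer reads. Emcn had 57 and 31 reads (43.1 ± 14.7 CPM), Kdr 35 and 41 (38.1 ± 7.4 CPM) and Pecam1 35 and 39 (37 ± 5.91 CPM). Cdh5, the cadherin of the adherens junction, had 10 and 22 reads (16.3 ± 9.8 CPM). Flt1 was lowest with 16 and 7 reads (11.2 ± 5.39 CPM). Every member lay above the 2.82 and 3.17 CPM that 3 counts make in replicates 1 and 2. In whole tissue, fewer endothelial cells and less RNA per cell cannot be told apart.

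**Figure D1:**
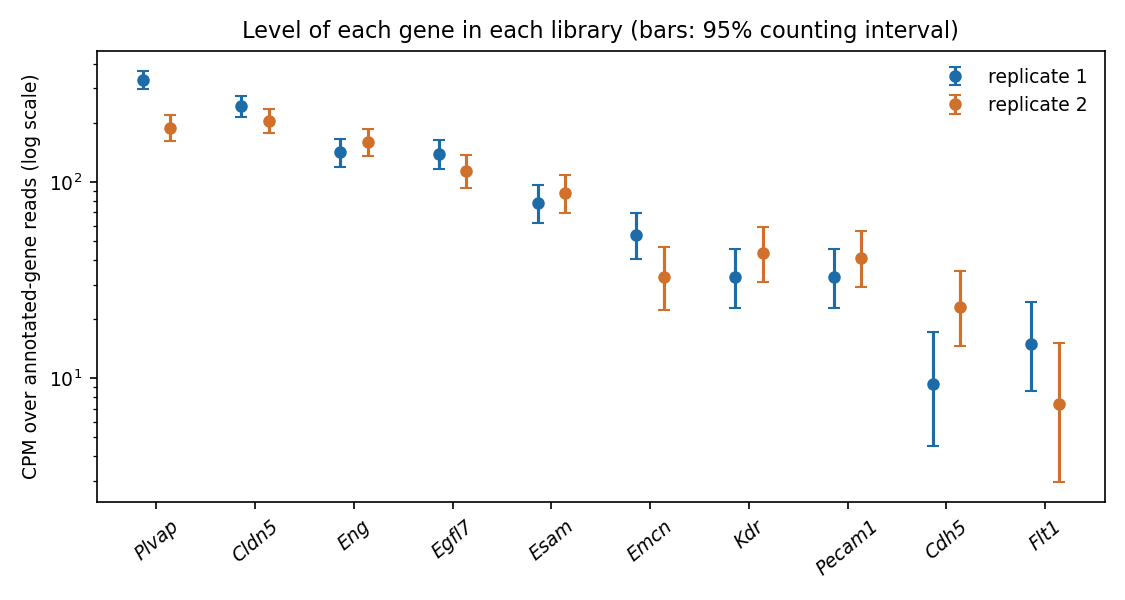
CPM of each of the 10 genes (log axis) in replicate 1 (blue) and replicate 2 (orange), ordered by mean, with exact 95% Poisson counting intervals. Plvap is the one gene whose 2 intervals do not overlap, 297 to 367 CPM against 162 to 219, and Flt1 and Cdh5 have the widest.

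Between genes, levels were also compared as CPM per kilobase of the mean length of the gene's own models. Each read is meant to span 1 molecule, so CPM alone already compares genes, and the division lowers long ones. By CPM alone Plvap came before Cldn5 (260 and 224), Eng before Egfl7 (151 and 126) and Kdr before Pecam1 (38.1 and 37). Per kilobase these pairs were reversed. Cldn5 came first at 159 ± 19.5 CPM per kb, then Plvap at 134 ± 51.4, Egfl7 at 96.7 ± 13.4, Eng at 50.2 ± 4.2 and Esam at 45.4 ± 3.8. Emcn (18.2 ± 6.18), Pecam1 (12.3 ± 1.96), Kdr (8 ± 1.56), Cdh5 (5.08 ± 3.05) and Flt1 (2.66 ± 1.28 CPM per kb) followed. Of neighbours in this order, the 2 libraries' values overlapped for Cldn5 and Plvap, Plvap and Egfl7, Eng and Esam, Kdr and Cdh5, and Cdh5 and Flt1. Emcn in replicate 2 (13.8 CPM per kb) and Pecam1 in replicate 2 (13.7) nearly met. The libraries' values did not overlap between Egfl7 and Eng, Esam and Emcn, or Pecam1 and Kdr.

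Between the libraries, 1 of the 10 members passed an exact conditional binomial test with Benjamini-Hochberg adjustment over 9211 genes with at least 20 summed reads. Of all those genes 26.4% passed, and 17.9% passed as lower in replicate 2. Scaled by total gene reads, the members' share was thus not above that of genes at large. It was above with TMM factors (3 of 10 members, 1703 of 9211 genes) and with spike-in reads (5 of 10, 2241 of 9211). With edgeR's exact test it was not (0 of 10, 513 of 9211). The member that passed with total gene reads was Plvap. Its log2 ratio of replicate 2 over replicate 1 was -0.80 (SE of counting 0.13, adjusted p = 8.38e-09). Its call depended on the scaling. With ERCC spike-in reads as the scale the ratio was -0.22 and the adjusted p 0.26, and edgeR's exact test, told to expect a biological variation of 0.2, gave an adjusted p of 0.503.

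Of the other members, Emcn (log2 ratio -0.70, SE 0.32, adjusted p = 0.0996) and Flt1 (-0.97, SE 0.64, adjusted p = 0.296) had lower CPM in replicate 2, and neither passed the exact test. Cdh5 had the highest ratio, 1.27 (SE 0.54, adjusted p = 0.0682), and also missed it. Cdh5 did pass in the same direction with TMM factors (1.55), with DESeq2 size factors (1.56), with spike-in reads (1.86) and when reads on Genomic models were left out. Eng was at 0.17, Esam at 0.17, Pecam1 at 0.32 and Kdr at 0.40, while Cldn5 (-0.25) and Egfl7 (-0.28) lay on the other side of 0. The sign of Cldn5 and Egfl7 turned with the scaling, to 0.34 and 0.31 with spike-in reads. The members' median was -0.04 against -0.28 over all genes tested, and TMM factors moved both up by 0.28. Plvap, Emcn and Flt1 had ratios below the median of all genes, Egfl7 lay on it, and the other 6 lay above it.

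**Figure D2:**
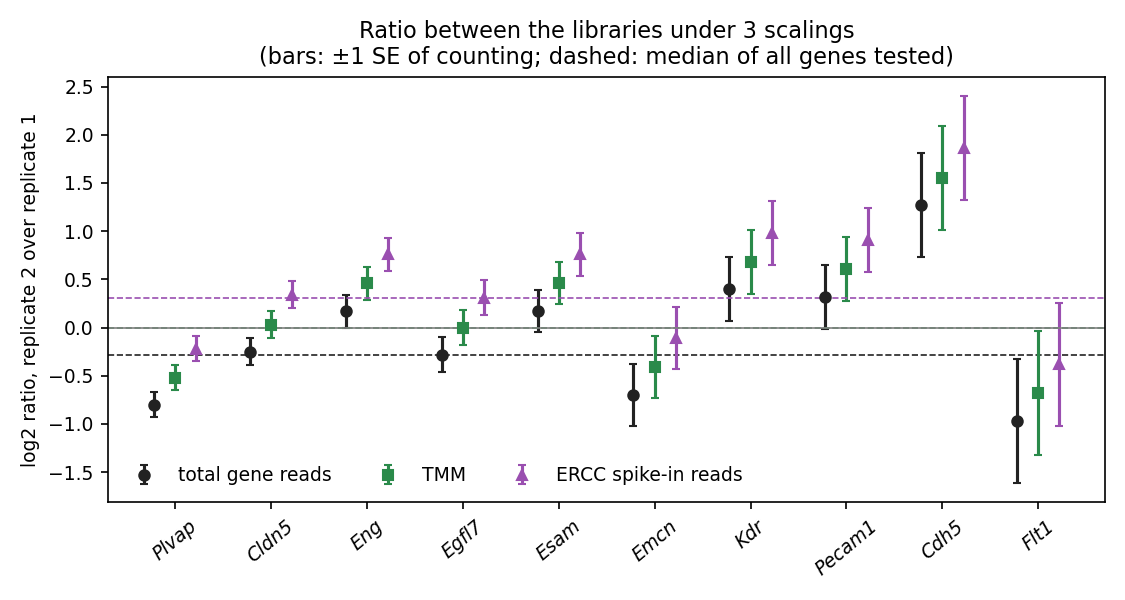
Log2 ratio of replicate 2 over replicate 1 for each gene, with bars of ±1 counting SE, scaled by total gene reads (circles), TMM (squares) and ERCC spike-in reads (triangles); dashed lines are the median of all genes tested under each scaling. Plvap moves from -0.80 to -0.22 between the outer scalings, and Cdh5 stays above 1 under all 3.

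The libraries differed in tissue content, and the markers that moved are given here beside the members. All 8 adrenal cortex markers and all 7 chromaffin cell markers were read in both libraries and all were lower in replicate 2 (summed 54505 and 24383 CPM for cortex, 11645 and 4484 for chromaffin cells, median log2 ratios -1.05 and -1.37). All 8 hepatocyte markers were higher in replicate 2, 416 against 47585 CPM, as were the 4 tested of 6 skeletal muscle markers, 61 against 1707 CPM. Of 10 markers listed for liver sinusoidal endothelium 3 had enough reads to test and 2 were higher in replicate 2, with 37.5 and 142 CPM in sum. Among them Stab2, Clec4g, Dnase1l3 and Clec4f were at 0 in replicate 1 and had 6, 25, 2 and 41 reads in replicate 2. Stab1 (16 and 17 reads) was tested and did not pass. Lyve1 (7 and 8), Mrc1 (6 and 7), Gpr182 (5 and 7), Oit3 (5 and 10) and Fcgr2b (1 and 11) were not tested. The markers that passed were Clec4g and Clec4f. Clec4f is known from Kupffer cells, the liver's macrophages, rather than from endothelium. Brown and white fat markers were abundant in both libraries (6736 and 7741 CPM), with 2 of 5 higher in replicate 2, and all 5 erythroid markers were lower there (11338 and 3623 CPM). The part of these tissues in the members' levels was not tested.

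Markers of other cells that can carry members were read as well. The 6 lymphatic endothelium markers summed to 25.3 and 30.6 CPM, each too low to test. Leukocytes and platelets also bear Pecam1, and their 9 markers summed to 187 and 289 CPM, with 1 of 6 tested (Cd74) higher in replicate 2. The pan-leukocyte gene Ptprc had 1 and 2 reads, and the platelet gene Ppbp had 0. All others on the list were read in both libraries. These were Cd74 (71 and 99 reads), Lyz2 (48 and 67), C1qc (24 and 37), Csf1r (19 and 21), C1qa (17 and 30), Pf4 (14 and 12) and Itga2b (5 and 6). The part of these cells in the Pecam1 reads was not tested. Of 10 pericyte and smooth muscle markers, 2 of 6 tested were higher in replicate 2 (217 and 371 CPM in sum).

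Known models took 82.1% of the members' reads in replicate 1 (79.8 to 84.3) and 80.9% in replicate 2 (78.1 to 83.5), against 76.1% and 78.2% over all annotated genes. The single-exon Cldn5 was Known in 260 of 260 and 193 of 194 reads. Plvap was at 94% and 94.4%, and Emcn at 87.7% and 87.1%. Egfl7 had 57.4% and 55.6%, Pecam1 57.1% and 51.3%, and Cdh5, the lowest over both, 40% and 36.4%. The 85 and 60 Known reads of Egfl7 include single-exon transcripts annotated as retained introns, which have no introns to match. These are Egfl7-213 (19 and 16 reads) and Egfl7-214 (3 and 1). None of the 8 members tested differed between libraries in this share by Fisher's exact test, with 1 (Kdr) at an unadjusted p under 0.05, and 0.637% of 5969 genes passed. With Genomic models left out, 0 of 8 members had an unadjusted p under 0.05 in that test. The leading intron chain gave the same result for the 7 members tested, with 0 under 0.05 and 0.558% of 5374 genes passing.

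**Figure D3:**
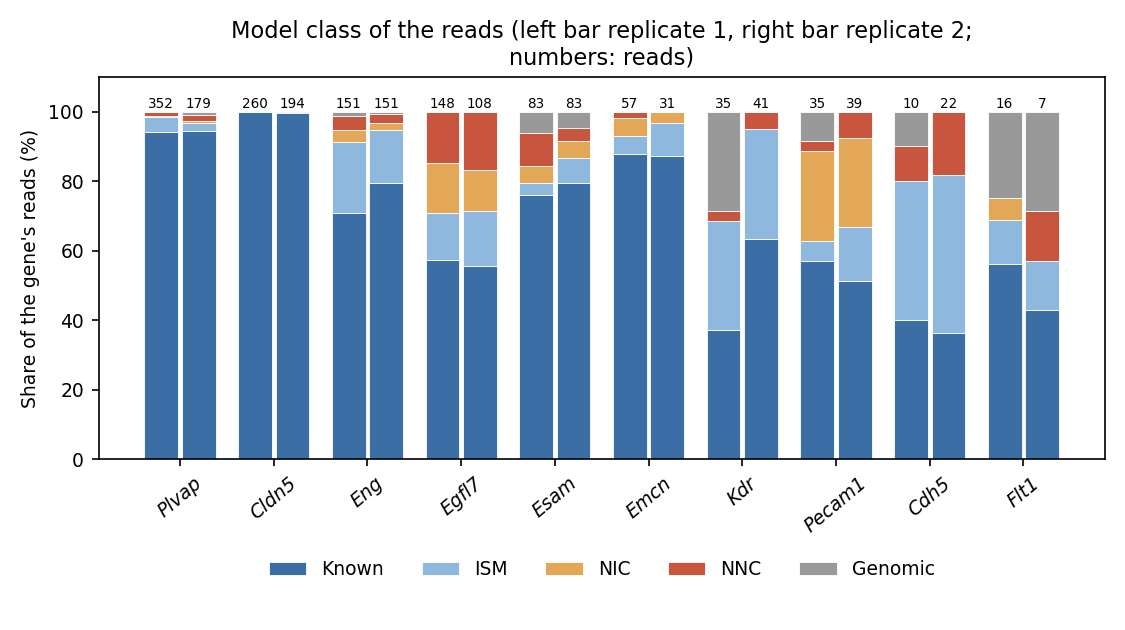
Share of each gene's reads by model class, left bar replicate 1 and right bar replicate 2, with read numbers above. Known reads (dark blue) fill the bars of Plvap and Cldn5, NIC and NNC reads (orange and red) are most visible in Egfl7 and Pecam1, and the Genomic class of Kdr appears in replicate 1 alone, as 10 of 35 reads.

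The VEGF receptors differed in shape. Flt1 spans chr5:147561604-147726011 (minus strand) and its receptor transcript Flt1-202 has 30 exons and 6895 nt, while the secreted Flt1-203 has 13 exons and is annotated at 6292 nt. Flt1-203 took 8 of 16 reads in replicate 1 and 3 of 7 in replicate 2, and Flt1-202 took 1 and 0. One further read in each library ended in exon 13 with other structure upstream, a 3-exon ISM model in replicate 1 and an NNC model in replicate 2. Together 13 of 23 reads, 56.5% (34.5 to 76.8), ended in exon 13 or its extension. Another 9, 6 and 3 by library, ended in the last exon of the receptor, and 5 of those 9 were single-exon models. The last read ended elsewhere.

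Along the gene, read numbers were lower past exon 13. That exon had 11 and 5 reads, and exon 14 had 2 and 1. Of the 16 reads that spliced out of exon 13 or ended there, 3 joined exon 14, which is 18.8% (4.05 to 45.6), with 2 of 11 in replicate 1 and 1 of 5 in replicate 2. One of the 3, in replicate 1, skipped exon 15, which is 132 nt long. Flt1-203 was the intron chain with most reads in each library, on few reads. By 3′ end alone replicate 2 was even, with 3 of 7 reads at the end of the secreted form and 3 of 7 in the last exon of the receptor, 2 of the latter on single-exon models. Flt1-203 is annotated to run 4066 nt past exon 13, and how much of that each read covered is not in the tables.

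Kdr (chr5:75932827-75978458, minus strand) showed no such form. Its 30-exon chain, Kdr-201 of 5924 nt, took 13 of 35 reads in replicate 1 and 26 of 41 in replicate 2. The other spliced reads were largely ISM runs of its 3′ exons, 11 and 9 in number. Exon 1 had 13 and 28 reads, exon 29 25 and 37, and exon 30 35 and 41, more toward the 3′ end in each library. A 3′ end away from the annotated one was seen in 1 of 35 and 0 of 41 reads, the latter allowing up to 8.6%.

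The reads on exon 30 that did not reach exon 29 were single-exon models. In replicate 1 it was 1 Genomic model with 10 reads, which covers the last intron (1676 nt) and 1 nt of exon 29. In replicate 2 it was 1 ISM model within the last exon, with 4 reads. The share of Known reads of Kdr was 37.1% (21.5 to 55.1) and 63.4% (46.9 to 77.9), which did not pass Fisher's exact test after adjustment (adjusted p = 0.606).

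**Figure D4:**
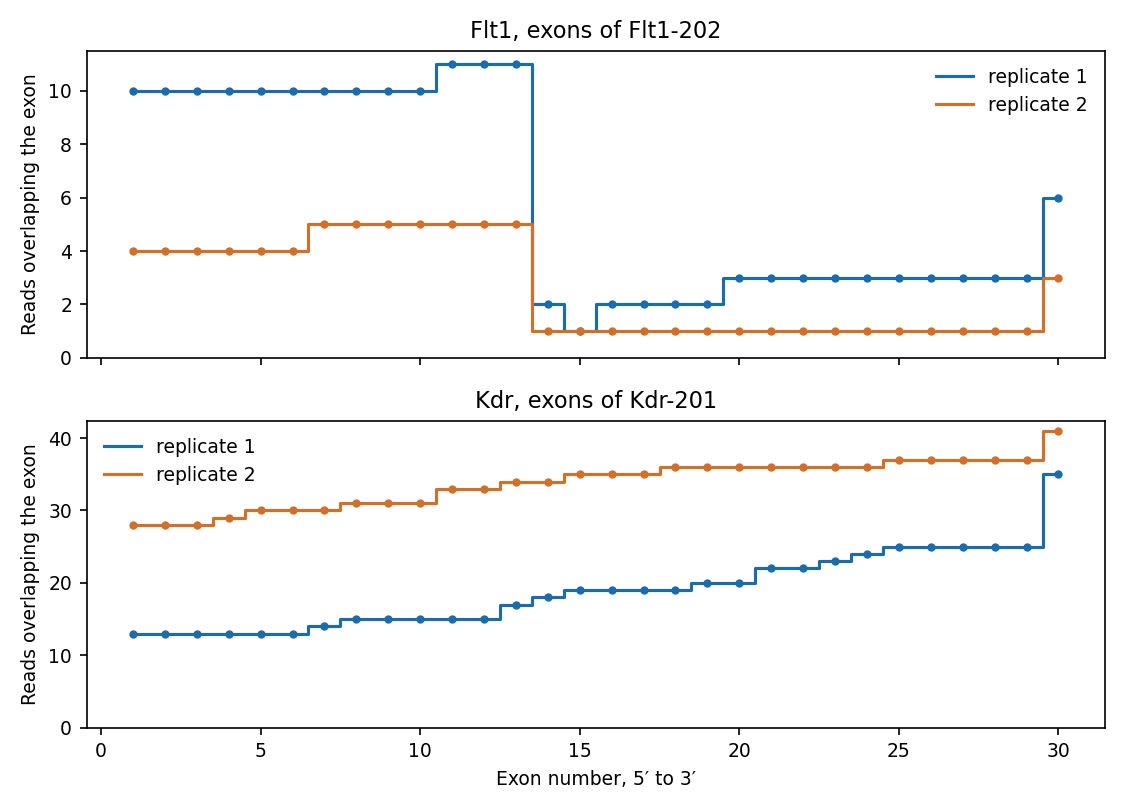
Number of reads that overlap each exon of Flt1-202 (top) and Kdr-201 (bottom) by at least 10 nt, in exon order, for replicate 1 (blue) and replicate 2 (orange). Flt1 drops from 11 and 5 reads at exon 13 to 2 and 1 at exon 14, and Kdr climbs to 35 and 41 at exon 30.

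Eng (chr2:32646595-32682669, plus strand) was read mostly as 2 annotated transcripts of near-equal proteins. Eng-201 took 79 and 96 reads and Eng-205 24 and 24. Counting every read spliced into exon 2, the upstream acceptor was used by 91 of 115 reads in replicate 1 and 102 of 127 in replicate 2, 79.1% (70.6 to 86.1) and 80.3% (72.3 to 86.8). The downstream acceptor took the other 20.9% and 19.7%, so the split differed by less than its counting error. The short endoglin, Eng-202, which keeps intron 14 and has another cytoplasmic tail, was seen once in 137 reads in replicate 1 (0.73%) and in 0 of 143 in replicate 2, which allows up to 2.55%.

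Intron 11 of Eng (318 nt) was the intron most often kept, in 7 of 134 reads in replicate 1 and 3 of 141 in replicate 2, 5.22% (2.13 to 10.5) and 2.13% (0.441 to 6.09). Introns 12 and 13 were kept in 0 reads of either library. Intron 7 (167 nt) was kept in 1 and 3. ISM reads numbered 31 and 23, of which 25 and 17 lacked 5′ exons.

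Among the junction genes, Pecam1 was the most varied at its tail. Pecam1 lies at chr11:106654217-106750628 on the minus strand, and 70 spliced reads ran from exon 13 into the last exon. Both tail exons were present in 9 of 32 reads in replicate 1 and 11 of 38 in replicate 2, 28.1% and 28.9%. Exon 14 alone was kept in 8 and 12 reads, exon 15 alone in 3 and 3, and neither in 12 and 12, 37.5% and 31.6%. These 4 patterns account for all 70 reads, and none took more than 24 of them.

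Exon 15 was skipped in 44 of 70 reads (62.9%, 50.5 to 74.1) and exon 14 in 30 of 71 (42.3%, 30.6 to 54.6). The same reads give both shares, and among those with 1 of the pair, exon 14 alone outnumbered exon 15 alone in each library, 8 to 3 and 12 to 3, a difference that was not tested. Exon 12, of 54 nt, was skipped in 2 of 32 and 7 of 39 reads. Exon 4, of 303 nt and in the extracellular part, was skipped in 3 of 29 and 1 of 34. Both lengths are multiples of 3. Of Known transcripts, Pecam1-204 took 8 and 9 reads, Pecam1-203 8 and 6, and Pecam1-202 4 and 5.

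Cdh5 (chr8:104101625-104144511, plus strand) had 1 annotated chain in use, Cdh5-201 of 12 exons and 3995 nt, with 4 and 8 reads. Single-exon models added 5 and 5 reads. NNC models with other splicing, of 1 or 2 reads each, made up 1 read in replicate 1 and 4 in replicate 2. The rest in replicate 2 were 5 ISM runs of 3′ exons, so the higher Cdh5 count there was not carried by 1 form.

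Esam (chr9:37528078-37538319, plus strand) was read as Esam-201, 7 exons, in 63 of 78 spliced reads in replicate 1 and 66 of 79 in replicate 2, 80.8% and 83.5%. A donor 11 nt past that of exon 5 was used in 3 of 73 and 2 of 76 reads. Models that start between exons 1 and 2 held 5 and 4 reads. A single-exon model of 97 nt at the 3′ end held 5 and 4, too short to be a whole transcript. Cldn5 (chr16:18776847-18778262, plus strand), 1 exon of 1416 nt, gave 1 form, with 1 spliced Genomic read in replicate 2.

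Plvap (chr8:71497765-71511752, minus strand) was the most uniform of the spliced members. Plvap-201, 6 exons and 1987 nt, took 331 of 348 spliced reads and 169 of 177, 95.1% (92.3 to 97.1) and 95.5% (91.3 to 98). The difference in Plvap reads between libraries thus lay largely in 1 chain. Models starting inside the 707 nt exon 3 held 9 and 4 reads. A donor 81 nt before the annotated one of exon 3 was used in 2 of 346 and 2 of 176 reads. A length of 81 nt is a whole number of codons.

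Emcn (chr3:137341067-137432185, plus strand) was read as Emcn-202, 12 exons and 2588 nt, in 48 of 57 and 27 of 29 spliced reads. Exon 4 was skipped in 2 of 55 and 1 of 29 reads. Exon 5 (39 nt) was skipped in 2 of 55 and 0 of 29, the latter allowing up to 11.9%. One read in each library ran past exon 7 into its 1896 nt intron and ended 424 and 426 nt on, without the exons that follow. As in Flt1, this is a form that stops short of the last exons, here 2 of 88 reads (2.27%, 0.276 to 7.97).

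Egfl7 (chr2:26580014-26593120, plus strand) had the most forms, 54 intron chains of which 15 were seen in both libraries. Of 126 spliced reads in replicate 1 and 91 in replicate 2, 122 and 84 began in a first exon of some protein-coding transcript. The shares that follow are among the 108 and 74 that opened in 1 of 3 such exons. The middle one, of Egfl7-202, opened 92 of 108 reads in replicate 1 and 63 of 74 in replicate 2, 85.2% (77.1 to 91.3) and 85.1% (75 to 92.3). The upstream one, of Egfl7-212, opened 12 and 7 reads, and the downstream one, of Egfl7-216, 4 and 4. The annotated protein of all 3 is 278 residues long.

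RefSeq's promoter table (GRCm38.p6, the mm10 assembly) has a window near each of these starts, and the 250 bases before RefSeq's start are shown in order, upstream, middle and downstream. Capitals mark GGAA or TTCC, the core bound by ETS factors, which are known to drive endothelial genes.
Egfl7 upstream (chr2:26580833-26581082): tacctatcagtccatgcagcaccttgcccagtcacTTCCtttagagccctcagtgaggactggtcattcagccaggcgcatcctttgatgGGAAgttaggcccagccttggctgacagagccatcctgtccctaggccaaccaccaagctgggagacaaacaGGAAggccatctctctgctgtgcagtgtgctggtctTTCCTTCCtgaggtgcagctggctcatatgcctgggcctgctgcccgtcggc
Egfl7 middle (chr2:26583615-26583864): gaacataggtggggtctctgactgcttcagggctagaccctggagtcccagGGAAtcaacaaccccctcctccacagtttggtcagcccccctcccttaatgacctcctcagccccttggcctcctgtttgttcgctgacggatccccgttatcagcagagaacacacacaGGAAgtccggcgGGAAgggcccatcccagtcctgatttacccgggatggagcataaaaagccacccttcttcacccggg
Egfl7 downstream (chr2:26586386-26586635): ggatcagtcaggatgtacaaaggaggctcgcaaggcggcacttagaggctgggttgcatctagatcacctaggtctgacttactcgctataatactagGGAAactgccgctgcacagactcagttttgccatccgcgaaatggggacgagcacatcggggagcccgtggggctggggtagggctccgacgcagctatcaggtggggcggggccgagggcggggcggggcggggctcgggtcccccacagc
The windows hold 5, 3 and 1 matches on either strand, so the order of matches is not the order of use. Of 32851 promoter windows 93.4% hold the core, with a median of 3, and a match is a run of letters and not a binding site. Windows of Kdr, Flt1, Emcn and Eng hold 4, 4, 4 and 3, and that of Cldn5 holds 0. Only 6 of the 10 members are in the table.

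**Figure D5:**
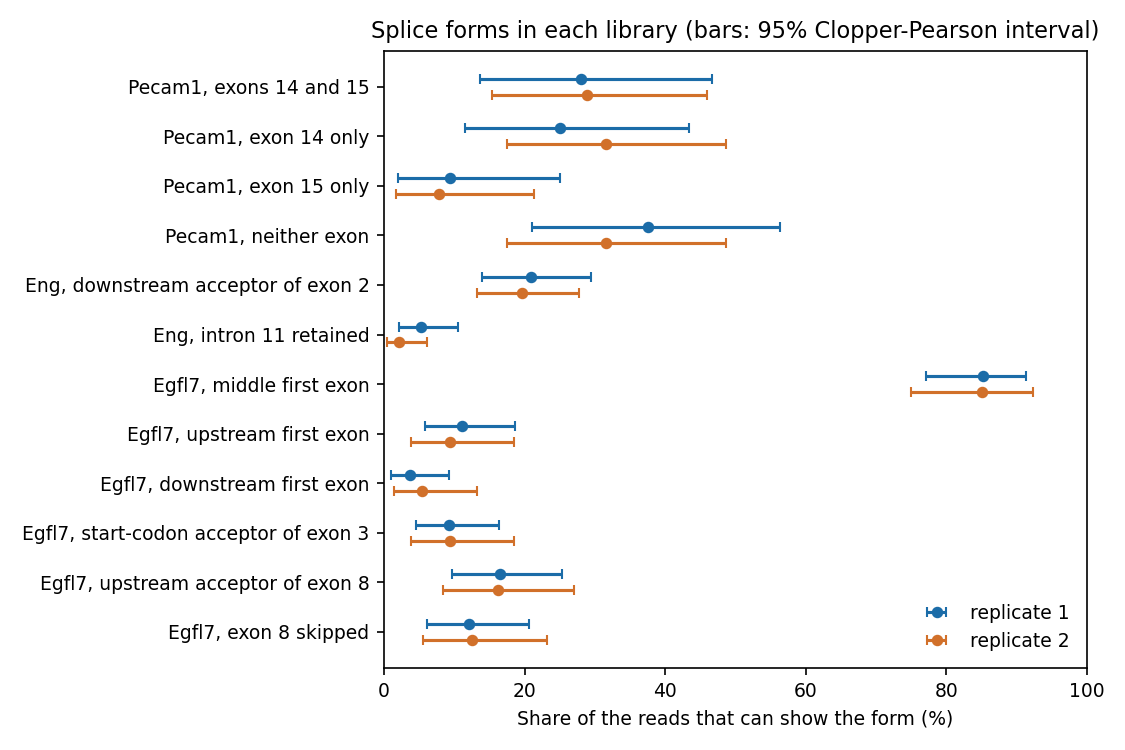
Share of the reads able to show each form of Pecam1, Eng and Egfl7 that had it, in replicate 1 (blue) and replicate 2 (orange), with exact 95% Clopper-Pearson intervals. The libraries' intervals overlap for all 12 forms, from the middle first exon of Egfl7 (85.2% and 85.1%) to intron 11 of Eng (5.22% and 2.13%).

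Further along Egfl7, the unannotated acceptor at the start codon replaced the annotated one of exon 3 in 10 of 108 and 7 of 74 reads, 9.26% (4.53 to 16.4) and 9.46% (3.89 to 18.5). It removes the last 33 nt of the 5′ leader and no coding base. The acceptor 99 nt before exon 8 was used in 16 of 97 and 11 of 68 reads, 16.5% (9.73 to 25.4) and 16.2% (8.36 to 27.1). Exon 8 itself, of 65 nt and thus not a whole number of codons, was skipped in 11 of 91 and 8 of 64 reads, 12.1% and 12.5%. Each of these shares differed between the libraries by less than its counting error.

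The extension of exon 8 comes from intron 7, the 600 nt intron that holds the hairpin of Mir126a (chr2:26591357-26591429). The hairpin ends 234 nt before the annotated exon 8. It lay within an exon of the model in 6 of 115 reads in replicate 1 and 5 of 84 in replicate 2, 5.22% (1.94 to 11) and 5.95% (1.96 to 13.3), and was spliced out of the rest. Short models at the 3′ end were common too. The single-exon Egfl7-213, 536 nt and annotated as a retained intron, had 19 and 16 reads. Models that start 1 to 25 nt past the hairpin, where annotated starts lie, had 14 of 148 reads in replicate 1 and 2 of 108 in replicate 2, 9.46% (5.27 to 15.4) and 1.85% (0.225 to 6.53). This was the widest gap between the libraries among the Egfl7 forms counted, and it was not tested. ISM reads starting 5 nt past the hairpin numbered 11 in replicate 1 and 0 in replicate 2. Such a start is the outer end of a model, and many outer ends were set to annotated ends. The gap is thus one of model starts and does not show a difference in splicing.

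How often spliced models began in a first exon varied with the gene. Since many outer ends were set to annotated ends, this share partly restates the model class. In replicate 1 the 13 such reads of Kdr equalled its 13 Known reads in number. The share does not measure how complete single reads were. The 5′ end lay in the first exon of a protein-coding transcript in 52% of spliced Kdr reads in replicate 1 and 75.7% in replicate 2, in 85.3% and 91.7% of those of Eng, and in 96.6% and 97.7% of those of Plvap. Their leading transcripts are 5924, 3422 and 1987 nt long, but the shares did not follow length throughout. Flt1, whose Flt1-203 is annotated at 6292 nt, stood at 83.3% and 80%, and Cdh5, of 3995 nt, at 100% and 70.6%, on 12 and 5 and on 5 and 17 spliced reads. The 3′ end of the model was within 200 nt of a protein-coding end in 99% and 99.4% of all members' reads, a share with the same limit. The exceptions numbered 12 and 5 reads, of which Flt1 held 4 and 3.

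Other genes of the same pathways were tested with them, and their counts are to be read against the 26.4% of all genes that passed in either direction. Their reads come from whole tissue, and the part of cells other than endothelium in them was not tested. Of 8 VEGF ligands and co-receptors, 6 were tested and 1 (Vegfd, -0.99) was lower in replicate 2. The most read were Vegfa (339 and 267 reads), Vegfb (117 and 104) and the co-receptor Nrp1 (92 and 90), none of which passed. Of 6 angiopoietin and Tie genes, the 2 tested did not pass: the receptors Tie1 (57 and 73 reads) and Tek (28 and 25). Ptprb, a phosphatase of Tek, had 4 and 9 reads, too few to test. Of 16 Notch and bone morphogenetic protein genes, 1 of 7 tested was lower, Smad1 (58 and 27 reads, -0.92), and Smad6 (31 and 24) and Tgfbr2 (25 and 28) followed it in reads.

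Of 14 endothelial transcription factors, 1 of 10 tested was higher in replicate 2, Epas1 (57 and 107 reads, log2 ratio 1.07), the hypoxia-responsive factor. Klf2 (84 and 60), induced by flow, and Gata2 (77 and 43) did not pass. Among 29 other surface and secreted endothelial genes, 21 were tested, with 1 higher (Rasip1, 43 and 66 reads) and 1 lower (Procr, 72 and 30). The most read, Cd36 (211 and 225), Gpihbp1 (97 and 84) and Cd34 (89 and 90), did not pass. Of 20 junction partners 12 were tested, 3 higher and 3 lower: the gap junction gene Gja1 (441 and 262 reads) and Ctnnb1 (129 and 73), which binds Cdh5, were lower, as was Jam3, while Cdh2, Vcl and Cldn3 were higher, Cldn3, which hepatocytes also express, from 5 to 74 reads. Ctnna1 (186 and 182) did not pass. The 6 of 12 junction partners that passed are a larger share than that of all genes, and the shares of the other 5 lists are smaller. These calls are given with total gene reads as the scale alone, and calls of the members changed with the scale. The lists' median log2 ratios were -0.39 (VEGF), -0.34 (transcription factors), -0.19 (Notch and bone morphogenetic protein), 0.18 (junction partners), 0.19 (other endothelial genes) and 0.27 (angiopoietin and Tie), so 4 of 6 lay above the -0.28 of all genes tested.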

How the data were processed

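The deposited values are whole read counts per transcript model, 1 table per library, with model coordinates on mm10 and GENCODE M21, per the labels and the files deposited with them. The aligner and versions the authors used were not stated there. The model classes are the authors' columns, per the file headers. Total reads were 1143111 in replicate 1 and 991731 in replicate 2, with 26894 and 15903 on ERCC spike-ins. The sources name no molecular identifiers, so reads may repeat a molecule and intervals (95%, exact), tests and the limit of 3 counts cover counting error only.

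The members, gene lists, markers and tests were chosen with earlier results of these data known. All 10 members are named, and of each pathway list the 3 genes with most summed reads; other list genes past the test and single markers were named after their values were seen. Counts of all model classes were summed per gene. Tests (SciPy 1.17.1) were an exact conditional binomial test for genes and Fisher's exact test for shares, two-sided, adjusted by Benjamini-Hochberg at 0.05, over genes with at least 20 summed reads, or 20 in each library for shares. Log2 ratios have 0.5 reads added. The tests were tried on simulated counts. Alternatives used edgeR 4.0.16 and DESeq2 1.42.0. Intron chains were matched by coordinates.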

Additional observations from a re-analysis of the deposited data

Results flagged for a closer look

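Unannotated loci, which none of the comparisons used, were read on the strand opposite to 3 members with more than 3 reads in each library. Opposite to Esam there were 17 reads in all, 8 in replicate 1 and 9 in replicate 2, and the main model of both libraries ends at the same base (chr9, 37532290). Opposite to Egfl7 there were 10 reads, 6 and 4, again with 1 shared end (chr2, 26584948). Opposite to Flt1 there were 10 reads, 6 and 4, on 3 and 4 models, of which those with 3 and 1 reads share their 3′ end (chr5, 147722640) and 2 and 1 reads lie against the extension of exon 13 that the secreted form uses. All but 1 of these models have a single exon. How strand was assigned is not stated in the labels, and the source of these reads was not tested.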

How the results depend on the processing

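The number of members called between the libraries was 1 and changed with the scale: 3 with TMM factors and 3 with DESeq2 size factors (Cdh5, Eng and Plvap), 5 with ERCC spike-in reads (Cdh5, Eng, Esam, Kdr and Pecam1), 2 with totals that leave out genes over 16-fold different and 2 without Genomic models (Cdh5 and Plvap), and 0 with edgeR's exact test at a coefficient of variation of 0.2. It stayed at 1 with Known models only, with no minimum and with at least 50 summed reads. Over all genes tested, 1703 passed with TMM factors, 2241 with spike-in reads and 513 with edgeR's exact test, against 2436 (790 higher, 1646 lower) with total reads; the split was 1151 higher and 552 lower with TMM factors, 1165 and 523 with DESeq2 size factors, 2071 and 170 with spike-in reads, 1070 and 659 with totals that leave out genes over 16-fold different, and 446 and 67 with edgeR's exact test. The log2 ratio of Cldn5 turned to 0.03, 0.04 and 0.34, and that of Egfl7 to 0.00, 0.01 and 0.31, with TMM factors, DESeq2 size factors and spike-in reads; the cause was not tested. Mean CPM from Known models only moved by more than the SD for Pecam1, Cdh5, Kdr, Flt1, Eng, Egfl7 and Esam. No alternative gave a call for the share of Known reads or the leading intron chain, and 3′ end shares within 50 and 500 nt stayed inside their intervals. Those ends are of models, many of which were set to annotated ends, so the windows do not probe where single reads ended. With 7 to 41 reads per library, the forms of Flt1, Cdh5, Kdr and Pecam1 are limited by depth. No paired analysis was possible because there is 1 group.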
